A study of Mus musculus with 2 samples.

Results

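The genes described here encode the receptors for acetylcholine, noradrenaline, serotonin and dopamine. They were chosen by symbol, as the muscarinic (Chrm), nicotinic (Chrn), adrenergic (Adra and Adrb), serotonin (Htr) and dopamine (Drd) receptor genes. The rule uses no measured value, but it was set with earlier results of these data known. Of the 31053 mouse genes in the count tables, 49 met the rule, namely 5 muscarinic, 16 nicotinic, 9 adrenergic, 14 serotonin and 5 dopamine receptor genes. They were followed in single nuclei of the olfactory bulb (OB) from adult WT mice that had received the virus retroAAV-CAG-H2B-GFP, an adeno-associated vector taken up by axon endings, which places green fluorescent protein on histone H2B and so in the nucleus of any cell it enters. The virus was placed in the anterior olfactory nucleus (AON) for 1 library and in the posterior piriform cortex (pPCx) for the other, and fluorescent nuclei were sorted before 10x library preparation. The promoter of the virus is not restricted to a cell type, so a labelled nucleus need not belong to a neuron that projects to the injected site.

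The OB receives fibres from cholinergic neurons of the basal forebrain, noradrenergic neurons of the locus coeruleus and serotonergic neurons of the raphe, while dopamine is made in the bulb itself by interneurons of the glomerular layer. Mitral and tufted cells are its glutamatergic projection neurons (PNs), and granule and periglomerular cells are its main GABAergic interneurons. Nicotinic receptors are cation channels assembled from several subunits. Muscarinic, adrenergic and dopamine receptors, and all serotonin receptors except the Htr3 channels, act through G proteins: Chrm1, Chrm3, Adra1 and Htr2 receptors activate phospholipase C through Gq, whereas Chrm2, Chrm4, Adra2, Htr1 and Drd2-like receptors act through Gi and Go.

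The AON library held 188 barcodes with 2963064 unique molecular identifiers (UMIs, each 1 captured RNA molecule), and the pPCx library held 74 barcodes with 2412067 UMIs. After nuclei with fewer than 1000 detected genes were left out, 102 and 63 nuclei remained, and no barcode was shared by the libraries (0 shared). A nucleus was called a PN when its UMIs of Slc17a7, Slc17a6, Tbx21 and Cdhr1 together exceeded those of Gad1, Gad2 and Slc32a1, and GABAergic in the reverse case with at least 3 UMIs of the latter. This gave 25 PNs, 47 GABAergic nuclei and 30 remaining nuclei from AON, and 59, 2 and 2 from pPCx. The classes stood for 1117466 UMIs in AON PNs, 1271188 in AON GABAergic nuclei and 2328340 in pPCx PNs, with medians of 38129, 26129 and 34306 UMIs per nucleus. Among PN markers that the rule did not use (Eomes, Tbr1 and Thy1), at least 1 UMI was found in 84.0% of AON PNs, 83.1% of pPCx PNs and 36.2% of AON GABAergic nuclei. At least 1 UMI of 9 GABAergic markers that the rule did not use was found in 76.0% of AON PNs, 76.3% of pPCx PNs and 100% of AON GABAergic nuclei, with summed levels of the whole GABAergic list of 86.8, 107 and 6355 CPM. The AON PN class was less certain, since 10 of its 25 nuclei were called on at most 3 excitatory UMIs, against 3 of 59 in pPCx, and 3 of them held at least 5 UMIs of an astrocyte or oligodendrocyte marker list and more of those than of the excitatory genes. Cux2, which also marks cortical glutamatergic neurons, stood at 536 UMIs per 1000000 (CPM) in AON PNs and 107 in pPCx PNs. Xist gave 2 UMIs in AON barcodes and 1782 in pPCx barcodes, and the Y-linked gene Eif2s3y gave 435 and 0, so that injection site and the sex of the animal cannot be told apart in these libraries. According to the study's methods the pPCx library came from a female animal, while the animal behind the AON library is not described there.

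Because each injection site is represented by 1 library, no test between groups was possible. Values are sums of UMIs over the nuclei of a class, given as CPM with exact Poisson 95% intervals, ratios carry conditional exact 95% intervals, and all intervals cover counting error only. A gene with at least 10 UMIs over the classes compared was counted as higher in one of them when the ratio reached 2-fold with 0.5 UMI added to each sum. Levels are compared between classes. Values of different genes are not on 1 scale, since 3′ counts were not set per length. That limit holds for the sums over genes and for the division of nuclei by Chrm3 and Htr1f in the closing section.

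The promoter is shown for 5 receptors. Chrna3 and Chrnb4 were found in PNs and in no GABAergic nucleus, but in AON PNs they rested on only 7 and 4 UMIs. Chrm2, Chrm3 and Htr1f had the largest ratios toward GABAergic nuclei. Each sequence runs from 250 bases before the RefSeq start site to 50 bases from it, 5′ to 3′ on the strand of the gene, in GRCm38.p6. They lie at chr9:55026513-55026812 (minus strand, Chrna3), chr9:55048495-55048794 (minus, Chrnb4), chr6:36387834-36388133 (plus, Chrm2), chr13:10360754-10361053 (minus, Chrm3) and chr16:65105735-65106034 (minus, Htr1f). Capitals mark every match, on either strand, to the T-box motif TCACACC, the EBF core CCCNNGGG, the homeodomain motif TAATTA or the GC box GGGCGG.
Chrna3: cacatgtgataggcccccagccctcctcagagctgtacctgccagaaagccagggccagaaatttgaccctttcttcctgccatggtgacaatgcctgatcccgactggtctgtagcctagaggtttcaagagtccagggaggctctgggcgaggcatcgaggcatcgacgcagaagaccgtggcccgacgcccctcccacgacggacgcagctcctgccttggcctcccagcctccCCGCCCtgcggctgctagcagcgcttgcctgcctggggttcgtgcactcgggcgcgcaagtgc
Chrnb4: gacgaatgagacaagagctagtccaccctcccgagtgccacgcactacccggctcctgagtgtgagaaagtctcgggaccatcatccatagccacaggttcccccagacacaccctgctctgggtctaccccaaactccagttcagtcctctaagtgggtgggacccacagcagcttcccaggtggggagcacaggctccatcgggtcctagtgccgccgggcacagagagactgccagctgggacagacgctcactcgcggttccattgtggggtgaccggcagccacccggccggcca
Chrm2: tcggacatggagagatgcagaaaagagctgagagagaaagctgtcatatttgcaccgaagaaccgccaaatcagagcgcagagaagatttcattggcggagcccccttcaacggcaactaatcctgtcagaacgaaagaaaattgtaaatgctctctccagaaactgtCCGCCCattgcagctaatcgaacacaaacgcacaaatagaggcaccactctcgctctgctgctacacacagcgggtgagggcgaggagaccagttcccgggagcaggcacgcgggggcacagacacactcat
Chrm3: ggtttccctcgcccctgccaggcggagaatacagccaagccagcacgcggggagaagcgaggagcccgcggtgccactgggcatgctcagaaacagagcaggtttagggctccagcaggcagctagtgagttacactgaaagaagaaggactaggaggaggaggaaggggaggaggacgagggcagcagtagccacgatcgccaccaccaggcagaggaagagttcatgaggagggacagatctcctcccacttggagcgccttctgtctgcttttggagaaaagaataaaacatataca
Htr1f: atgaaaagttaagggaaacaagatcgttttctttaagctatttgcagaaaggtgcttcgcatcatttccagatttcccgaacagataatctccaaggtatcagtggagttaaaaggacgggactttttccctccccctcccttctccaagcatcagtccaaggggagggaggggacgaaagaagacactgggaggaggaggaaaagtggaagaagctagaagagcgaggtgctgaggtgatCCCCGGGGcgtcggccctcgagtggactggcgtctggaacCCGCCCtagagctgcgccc

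Guanine and cytosine made up 64.3% of the Chrna3 window and 63.0% of the Chrnb4 window, against 52.7% for Chrm2, 57.3% for Chrm3, 53.0% for Htr1f and a median of 52.7% over all 32851 promoter windows of that table. One GC box each was found in the windows of Chrna3, Chrm2 and Htr1f, a motif present in 35.7% of all windows, and 1 EBF core in that of Htr1f, present in 13.7% of all windows. The TCACACC and TAATTA letters, present in 3.98% and 5.29% of all windows, occurred in none of the 5 windows (0 matches). The table held an entry for 37 of the 49 receptor genes, and none for Adra1a or Chrm1.

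By gene annotation of the same build (GENCODE M21), the muscarinic genes with the most UMIs span chr6:36388084-36528414 (Chrm2, plus strand) and chr13:9875486-10360847 (Chrm3, minus strand). Htr1f spans chr16:64924729-65105854 on the minus strand and Adra1a chr14:66635251-66771168 on the plus strand. Chrna5, Chrna3 and Chrnb4 lie side by side on chromosome 9, from 54980880 to 55048779. Htr2a spans chr14:74640840-74709494. Of the 49 genes, 12 overlap another gene of the count tables, in each case on the opposite strand. Among them are Chrm2 with 9330158H04Rik, Chrm3 with Gm26861, Chrnb4 with Gm47877 and Htr2b with Psmd1. Whether reads of a gene of such a pair entered the count of the other was not tested.

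In the nuclei kept, 42 of the 49 receptor genes had at least 1 UMI and 21 had at least 10. No UMI was found for the other 7, among them Chrm5, Htr6 and Drd5. By family, muscarinic genes gave 2517 UMIs, serotonin genes 2189, adrenergic genes 591 and nicotinic genes 381. The 5 dopamine receptor genes together gave 10 UMIs, so that no difference between classes was detectable for them at this depth.

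The clearest contrast lay between cell classes of 1 library. In AON GABAergic nuclei the 49 genes together took 3853 UMIs (3031 CPM), against 315 UMIs (282 CPM) in the PNs of the same library and 937 UMIs (402 CPM) in pPCx PNs. Chrm2, Chrm3, Htr1f and Adra1a made up 91.6% of the GABAergic sum. The other 45 genes together stood at 254 CPM in AON GABAergic nuclei, 213 CPM in AON PNs and 253 CPM in pPCx PNs. Between AON PNs and AON GABAergic nuclei, 13 of the 49 genes had at least 10 UMIs, 24 had 1 to 9 and 12 had none. Of the 13, 7 were at least 2-fold higher in GABAergic nuclei (53.8%, against 16.8% of all 12272 genes compared), 1 was at least 2-fold higher in PNs (7.69%, against 16.5% of all genes) and 5 were neither. The median log2 ratio of PNs over GABAergic nuclei was -1.67 over the 13 receptors and -0.05 over all genes compared. Of the 7, 3 entered the comparison only through the GABAergic class, where they were high, and they are named below. These shares and medians are therefore no test of an excess.

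Chrm2, the Gi-coupled muscarinic receptor, reached 647 CPM (604 to 693) in AON GABAergic nuclei, from 823 UMIs in 33 of 47 nuclei. In AON PNs it stood at 4.47 CPM (1.45 to 10.4), from 5 UMIs in 3 of 25 nuclei. The ratio of the sums was 145 (61.8 to 447), a log2 ratio of PNs over GABAergic nuclei of -7.04. Its size depended on the weighting, with -5.19 when every nucleus counted equally and -4.04 after thinning each to 3000 UMIs, and 1 AON PN held 24.6% of the UMIs of its class. pPCx PNs matched the low level of AON PNs, at 5.58 CPM (2.97 to 9.55), and astrocyte-marker nuclei of the AON library were at 3.67 CPM. Single GABAergic nuclei ranged from 0 to 2357 CPM with a median of 296.

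Chrm3, a Gq-coupled muscarinic receptor, stood at 839 CPM (790 to 891) in AON GABAergic nuclei and at 19.7 CPM (12.3 to 29.8) in AON PNs, a 42.6-fold difference (28.0 to 68.3). It was found in 39 of 47 GABAergic nuclei, whose values ran from 0 to 5616 CPM with a median of 176. The median nucleus thus lay well below the summed level. Chrm1, the other Gq-coupled muscarinic gene with enough UMIs, stood at 39.3 CPM (29.2 to 51.9) in GABAergic nuclei and at 1.79 CPM in PNs, where it rested on 2 UMIs, and the ratio was 22.0 (5.77 to 186). Chrm1, Chrm2 and Chrna10 had under 10 UMIs in PNs and so entered the comparison through the class where they were high.

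Htr1f, a Gi-coupled serotonin receptor, reached 1014 CPM (959 to 1071) in AON GABAergic nuclei, where 41 of 47 nuclei held it and the median nucleus was at 703 CPM. In AON PNs it stood at 23.3 CPM (15.2 to 34.1), 43.6-fold lower (interval of the ratio 29.6 to 67.0). Htr2c, which activates Gq, was at 46.4 CPM in GABAergic nuclei and 24.2 CPM in PNs, a 1.92-fold difference that lay outside counting error (1.20 to 3.15) but under the 2-fold limit. Htr2a, a Gq-coupled receptor known for its expression in cortical pyramidal neurons, was the single receptor among the 13 with at least 10 UMIs that passed 2-fold in the other direction. Its level was 58.2 CPM (44.9 to 74.1) in AON PNs, with a UMI in 15 of 25 nuclei, and 13.4 CPM (7.79 to 21.4) in AON GABAergic nuclei, with a UMI in 7 of 47, a 4.35-fold difference (2.52 to 7.92). One GABAergic nucleus held 58.8% of the Htr2a UMIs of its class. Htr2b was at 16.1 CPM in PNs and 13.4 CPM in GABAergic nuclei, within counting error.

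Adra1a, a Gq-coupled receptor for noradrenaline, stood at 276 CPM (248 to 307) in AON GABAergic nuclei, in 35 of 47 nuclei, and at 21.5 CPM (13.8 to 32.0) in AON PNs, a ratio of 12.9 (8.50 to 20.3). Astrocyte-marker nuclei of the AON library also held it, at 143 CPM (102 to 196), in 10 of 18 nuclei. Adra1b, its close relative, did not follow it: 26.0 CPM in AON PNs, 16.5 CPM in GABAergic nuclei and 25.8 CPM in pPCx PNs, all within counting error of each other in the comparisons made. Among nicotinic genes, Chrna7, whose subunit can form channels on its own, was 3.24-fold higher in GABAergic nuclei (1.93 to 5.70), at 55.1 against 17.0 CPM, in 17 of 47 and 8 of 25 nuclei, but thinning to 3000 UMIs turned its direction (log2 ratio of PNs over GABAergic nuclei 0.26, from -1.67). Chrna10 was at 14.9 CPM in GABAergic nuclei and rested on 1 UMI in PNs (ratio 16.7, interval 2.66 to 694). Chrnb2, a subunit of heteromeric receptors, was level at 17.0 and 17.3 CPM.

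**Figure D1:**
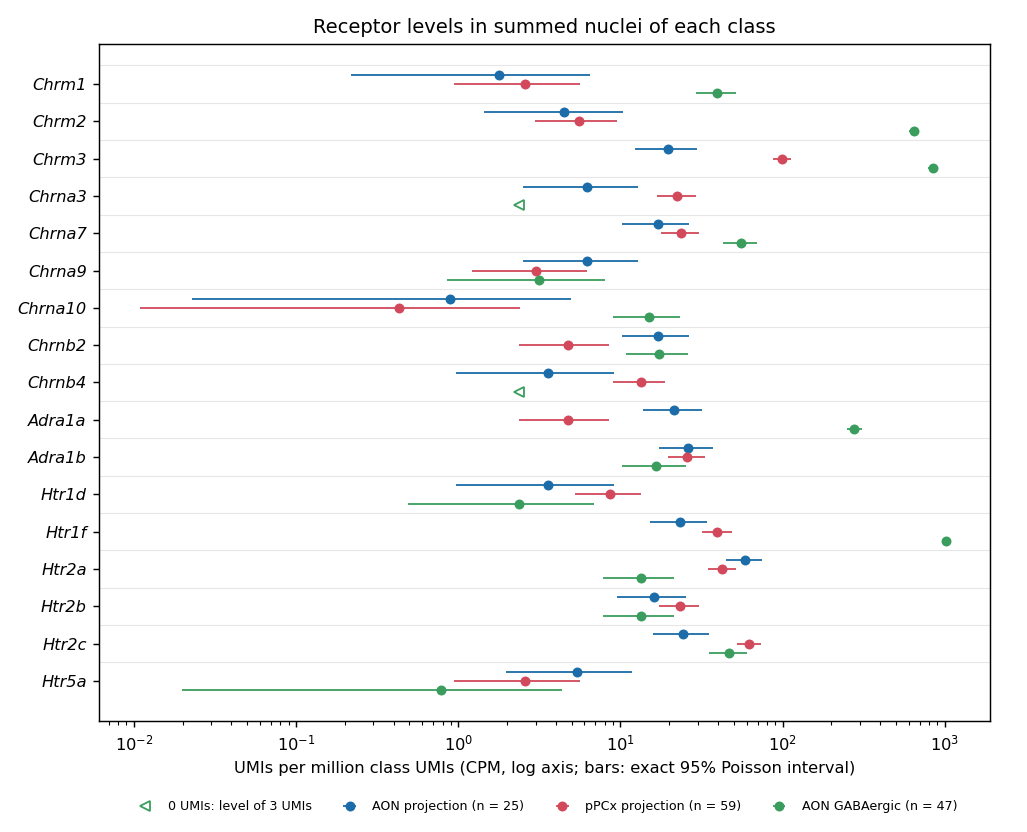
Level of 17 receptor genes in CPM (x axis, log scale) in the summed nuclei of AON PNs (blue), pPCx PNs (red) and AON GABAergic nuclei (green), with exact 95% Poisson intervals and open triangles at the level of 3 UMIs where no UMI was found. Chrm1, Chrm2, Chrm3, Htr1f and Adra1a in GABAergic nuclei stand far to the right of both PN classes, while Chrna3 and Chrnb4 have no GABAergic point.

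Chrna3 and Chrnb4, whose subunits assemble with each other into heteromeric nicotinic channels, gave the opposite picture. Neither had a UMI in any GABAergic nucleus of either library, and with 3 UMIs taken as the limit that a count of 0 allows, the AON GABAergic class could hold up to 2.36 CPM. In pPCx PNs Chrna3 stood at 22.3 CPM (16.7 to 29.3), in 30 of 59 nuclei, and Chrnb4 at 13.3 CPM (9.05 to 18.9), in 20 of 59. In AON PNs Chrna3 rested on 7 UMIs, outside counting error from 0 in AON GABAergic nuclei, and Chrnb4 on 4 UMIs, within counting error. Both sums were under the 10 UMIs required of the counts above. Both genes were found together in 11 of the 59 pPCx PNs and neither in 20. Over these nuclei the Spearman correlation of their levels was -0.04, so the 2 genes did not rise together from nucleus to nucleus. Chrna5, their neighbour on chromosome 9, gave 2 UMIs in pPCx PNs and 0 in AON PNs. The study lists Chrna5 as a marker of 1 mitral cell type, so its place in PNs is no independent evidence.

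Free RNA can put UMIs of a gene into droplets of cells that do not make it. In the 8 oligodendrocyte-marker nuclei of the AON library, which serve as a reference for that background, Chrm2 and Chrm3 were each at 5.66 CPM, Htr1f at 22.6 CPM (6.17 to 58.0) and Adra1a at 17.0 CPM (3.50 to 49.6). For Chrm2 and Chrm3, with 1 UMI each, the intervals were 0.143 to 31.5 CPM. The levels of all 4 genes in AON PNs lay within the intervals of that reference, which are wide because they rest on few UMIs. Those nuclei also held the GABAergic marker list at 696 CPM, against 86.8 CPM in AON PNs, and so may not stand for the background in PNs. The PN levels could not be told from this reference at this depth, and the background in PNs themselves was not measured. To compare shares of nuclei at equal depth, each nucleus was thinned to 3000 UMIs. The share of AON GABAergic nuclei with a UMI was then 61.7% for Htr1f (46.4 to 75.5), 51.1% for Chrm2 (36.1 to 65.9), 46.8% for Chrm3 (32.1 to 61.9) and 36.2% for Adra1a (22.7 to 51.5), against 87.2%, 70.2%, 83.0% and 74.5% without thinning. After thinning, 1, 2, 2 and 3 of the 25 AON PNs held a UMI of these genes in the same order. At equal depth the GABAergic shares thus stood above those of PNs for each of the 4 genes, and no nucleus was too shallow to be thinned in these classes.

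Within the AON GABAergic class the receptors were combined in different ways. All 4 of Chrm2, Chrm3, Htr1f and Adra1a were found in 22 of the 47 nuclei, 3 of them in 13 nuclei, 2 in 9 and 1 in 3, and the nuclei with all 4 were deeper (median 29204 UMIs) than those with 1 (median 9651). Chrm3 and Htr1f were found together in 33 nuclei, and no nucleus lacked both (0 of 47). Their levels ran against each other over nuclei, with a Spearman correlation of -0.64 (47 nuclei of 1 library, sharing depth and preparation). Nuclei with the most Chrm3 had little Htr1f. Chrm1 and Htr1f gave -0.39, and Chrm2 with Adra1a gave 0.15. In the pPCx library only 2 nuclei were GABAergic, and 1 of them held all 252 Chrm2 UMIs and all 65 Htr2c UMIs of that class.

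**Figure D2:**
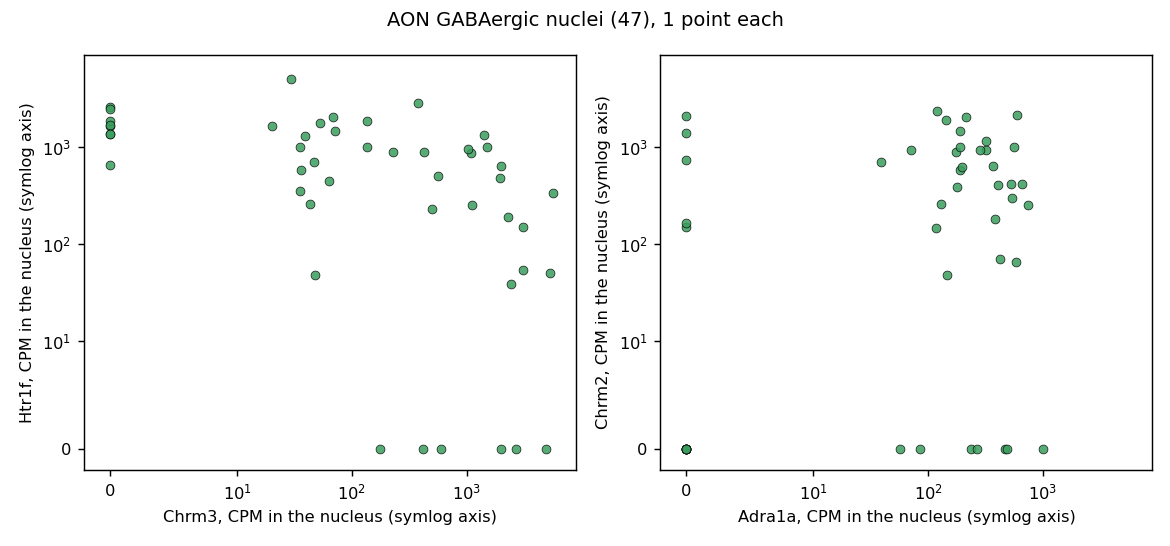
CPM in each of the 47 AON GABAergic nuclei, Chrm3 against Htr1f on the left and Adra1a against Chrm2 on the right (both axes linear below 10 CPM and logarithmic above). On the left the points fall from the upper left to the lower right, with a Spearman correlation of -0.64, and no such slope is seen on the right, where it was 0.15.

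The second question was whether PNs labelled from AON and from pPCx differ in these receptors. Of the 49 genes, 15 had at least 10 UMIs over both PN classes, 22 had 1 to 9 and 12 had none. In the AON library 4 of the 15 were at least 2-fold higher (26.7%, against 8.51% of all 13677 genes compared) and in the pPCx library 5 were (33.3%, against 12.4% of all genes), while 6 were neither. The median log2 ratio of AON over pPCx was -0.45 over the receptors and -0.06 over all genes compared. Htr1d, Chrna3 and Chrnb4 had under 10 UMIs in AON PNs and so entered the comparison through the pPCx library, where they were high. Htr5a and Chrna9 had under 10 UMIs in each library and entered by their sum. The shares of receptors and of all genes are therefore no test of an excess. With so few genes, a count that rests on 4 or 5 members is a description of these 2 libraries.

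Higher in pPCx PNs were Chrm3, Chrnb4, Chrna3, Htr2c and Htr1d. Chrm3 showed the largest ratio among the 15 genes, 99.2 CPM (86.8 to 113) in pPCx PNs against 19.7 CPM in AON PNs, 5.04-fold (3.25 to 8.20), with a UMI in 41 of 59 and 12 of 25 nuclei. Htr2c stood at 62.3 CPM (52.6 to 73.3) against 24.2 CPM (15.9 to 35.2), 2.58-fold (1.70 to 4.04), in 45 of 59 and 12 of 25 nuclei. Chrna3 was 3.57-fold higher (1.61 to 9.30) and Chrnb4 3.72-fold higher (1.32 to 14.5), although 1 AON nucleus held 71.4% of the 7 Chrna3 UMIs of AON PNs. Htr1d, a Gi-coupled receptor, was at 8.59 against 3.58 CPM, within counting error (ratio 2.40, interval 0.804 to 9.66), and thinning to 3000 UMIs turned its direction. Htr1f was 1.70-fold higher in pPCx PNs (1.09 to 2.74), outside counting error but under the 2-fold limit.

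Higher in AON PNs were Adra1a, Chrnb2, Htr5a and Chrna9. Adra1a stood at 21.5 CPM (13.8 to 32.0) in 13 of 25 AON PNs and at 4.72 CPM (2.36 to 8.45) in 10 of 59 pPCx PNs, 4.55-fold (2.14 to 10.3). The AON library also held most of the nuclei rich in Adra1a, the GABAergic and astrocyte-marker nuclei. The Adra1a level in AON PNs was within the interval of the oligodendrocyte-marker reference given above. The part of free RNA in this difference was not tested. Chrnb2 was at 17.0 CPM (10.2 to 26.6) against 4.72 CPM, 3.60-fold (1.63 to 8.37). Htr5a and Chrna9 were each 2.08-fold higher in AON PNs on 6 and 7 UMIs per class, which is within counting error. When PNs with more glial-list than excitatory UMIs were left out, an alternative added after the values were seen that removed 3 AON and 4 pPCx nuclei, these last genes fell below the limit and the count was 2 in place of 4. Adra1a and Chrnb2 then had log2 ratios of 2.08 and 2.09. Of the 6 genes that passed in neither direction, Adra1b stood at 26.0 and 25.8 CPM, Htr2a at 58.2 and 42.5 CPM, Chrna7 at 17.0 and 23.6 CPM, Htr2b at 16.1 and 23.2 CPM and Chrm2 at 4.47 and 5.58 CPM in AON and pPCx PNs, all within counting error.

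**Figure D3:**
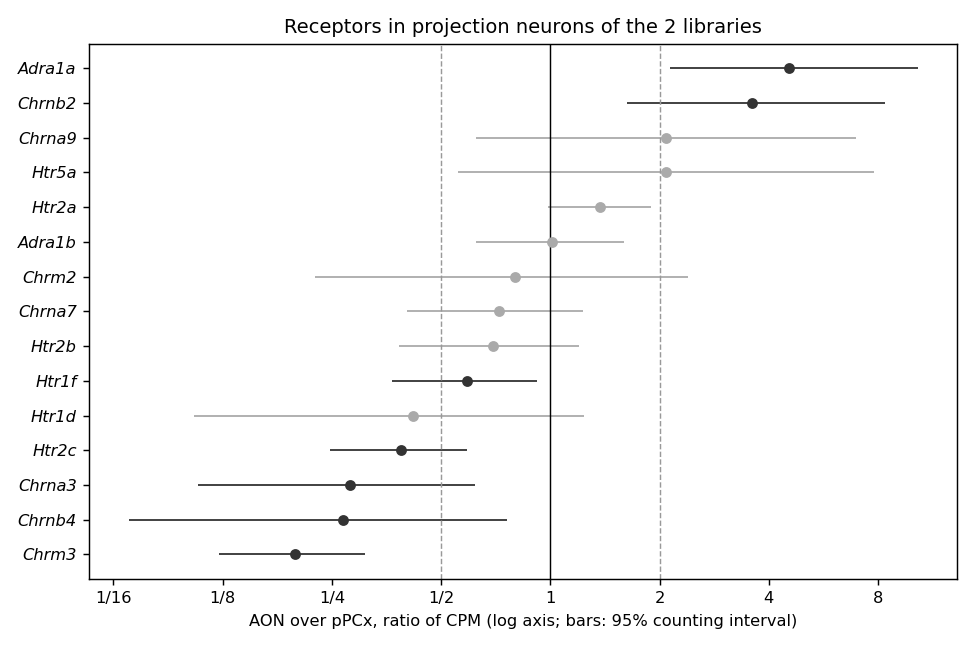
Ratio of CPM in AON PNs over pPCx PNs (x axis, log scale) for the 15 receptor genes with at least 10 UMIs, with conditional exact 95% counting intervals. Dark points are outside counting error and grey points within it, dashed lines mark 2-fold, and the genes run from Adra1a at 4.55 to Chrm3, which was 5.04-fold higher in pPCx.

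PNs also differed among themselves within the pPCx library. Ebf1 and Cntn6, neither of them a receptor, divided its PNs into 37 nuclei above 1000 CPM of both genes together and 22 below, with no nucleus between 100 and 1433 CPM. The study lists both genes among the markers of its mitral cell type M1. By trained classifiers, however, it assigned most PNs of this pPCx library to another type, M2. How the split relates to those types was not tested. Of the AON PNs, 1 was above that limit, at 1096 CPM, and 24 were below. Of the 49 receptor genes, 13 could be compared between the pPCx nuclei on either side. Above the limit 2 were at least 2-fold higher (15.4%, against 12.4% of all 12331 genes compared), below it 1 was (7.69%, against 6.83%), and 10 were neither. The count of receptors past the limit was therefore near that of genes at large, and the pattern lay in 2 large differences of opposite sign.

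Chrm3 was higher in the Ebf1/Cntn6-high nuclei. It stood at 167 CPM there, with a UMI in 33 of 37 nuclei and a median nucleus of 159 CPM, and at 12.7 CPM in the low nuclei, with a UMI in 8 of 22 and a median of 0 CPM. The ratio was 13.2 (7.55 to 25.2). Htr2a showed the reverse. In low nuclei it stood at 91.7 CPM, with a UMI in 16 of 22 nuclei and a median nucleus of 85.3 CPM, and in high nuclei at 3.84 CPM, with a UMI in 4 of 37, a ratio of 23.9 (9.89 to 75.4). Htr2a had under 10 UMIs in high nuclei and so entered the comparison through the low nuclei, where it was high. Over all 59 pPCx PNs the Spearman correlation of Chrm3 and Htr2a was -0.49 (nuclei of 1 library).

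AON PNs resembled the Ebf1/Cntn6-low pPCx nuclei in this pair. The 24 low AON nuclei held Chrm3 at 19.2 CPM and Htr2a at 62.5 CPM, with a UMI in 11 and 15 of them. Between low nuclei of both libraries the Chrm3 ratio of AON over pPCx was 1.51 (0.717 to 3.31), within counting error, against the 5.04-fold difference in the other direction over all PNs. Ebf1/Cntn6-high nuclei made up 1 of 25 AON PNs and 37 of 59 pPCx PNs, and their part in the Chrm3 difference was not tested. The 1 high AON nucleus held Chrm3 at 26.1 CPM, near the low nuclei and below the 167 CPM of the pPCx high nuclei. Other receptors past 2-fold between the libraries behaved in different ways among low nuclei. Those outside counting error there were Adra1a 4.43-fold (1.46 to 18.0) and Chrnb2 5.25-fold (1.50 to 28.1) higher in AON, Chrna3 7.11-fold (1.63 to 64.5) and Chrnb4 3.81-fold (1.21 to 15.8) higher in pPCx, Htr2c, at 1.83-fold (1.10 to 3.11) higher in pPCx and so under the 2-fold limit, and Htr5a, on 6 UMIs in AON and 0 in pPCx. Chrna9 was 1.18-fold higher in AON and Htr1d 2.29-fold higher in pPCx (0.638 to 10.2), both within counting error. Htr2a was 1.47-fold higher in pPCx low nuclei (1.06 to 2.05), whereas over all PNs it had been 1.37-fold higher in AON, within counting error.

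The second receptor past the limit in high nuclei was Chrna3, 2.13-fold higher there (1.13 to 4.26), at 29.2 against 13.7 CPM. Htr2c was 1.75-fold higher in high nuclei (1.22 to 2.54), at 76.7 against 43.9 CPM, outside counting error but under the limit. Chrnb4 stood at 12.3 and 14.6 CPM, Htr1f at 42.2 and 36.1 CPM, Adra1b at 25.3 and 26.3 CPM, Chrna7 at 22.2 and 25.4 CPM and Htr2b at 23.0 and 23.4 CPM in high and low nuclei, each within counting error.

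**Figure D4:**
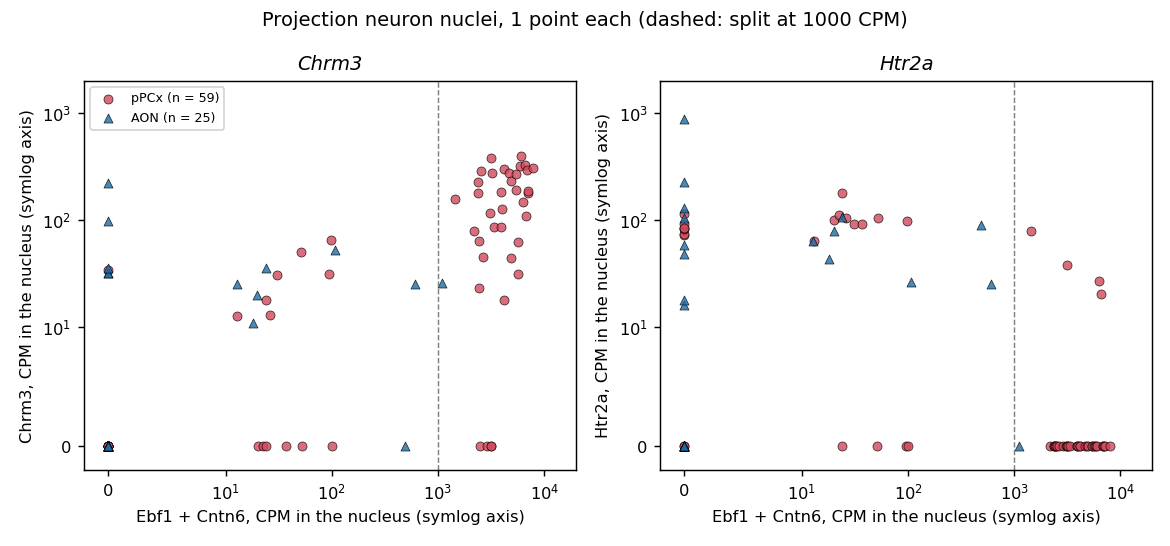
CPM of Chrm3 (left) and Htr2a (right) in each PN nucleus against its CPM of Ebf1 and Cntn6 together, for 59 pPCx (red circles) and 25 AON (blue triangles) nuclei, with axes linear below 10 CPM and logarithmic above and the 1000 CPM split dashed. Chrm3 is found in 33 of the 37 pPCx nuclei to the right of the line, and Htr2a in 4 of them but in 16 of the 22 to the left.

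The partners of these receptors were read from a list of 54 genes for transmitter synthesis and removal, nicotinic receptor chaperones, G proteins, receptor kinases and effectors. Between AON PNs and AON GABAergic nuclei 35 of them could be compared, of which 8 were at least 2-fold higher in GABAergic nuclei (22.9%, against 16.8% of all genes) and 3 in PNs (8.57%, against 16.5%). Plcb1, a phospholipase C that Gq-coupled receptors activate, stood at 2528 CPM in GABAergic nuclei and 38.5 CPM in PNs, 65.7-fold (48.7 to 91.0). Plcb4, another phospholipase C of that family, went the other way under the 2-fold limit, at 287 CPM in PNs and 168 CPM in GABAergic nuclei, 1.71-fold (1.44 to 2.05). Kcnq5, a potassium channel of the M-current that muscarinic receptors close, stood at 2037 and 22.4 CPM, 91.0-fold (61.5 to 141). The Gi and Go subunit genes Gnai1 (4.16-fold), Gnai3 (2.11-fold) and Gnao1 (2.08-fold), the Golf gene Gnal (2.60-fold) and Kcnj6, a G protein-gated potassium channel (5.53-fold), were also higher in GABAergic nuclei. Arrb1, a beta-arrestin that desensitises G protein-coupled receptors, was 7.27-fold higher in PNs (4.66 to 11.8), at 132 against 18.1 CPM.

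Enzymes of transmitter synthesis gave few UMIs. Th, the rate-limiting enzyme of dopamine synthesis, gave 46 UMIs in AON GABAergic nuclei, 0 in AON PNs and 1 in pPCx PNs. Chat, which makes acetylcholine, gave at most 2 UMIs in a class, and Slc18a3, Dbh, Pnmt and Slc6a2 gave 0 in all. Between the PN classes of AON and pPCx 40 of the 54 genes could be compared, 5 at least 2-fold higher in AON (12.5%, against 8.51% of all genes) and 7 in pPCx (17.5%, against 12.4%). Kcnj3, another G protein-gated potassium channel, stood at 1001 CPM in AON PNs and 171 CPM in pPCx PNs, 5.87-fold (5.23 to 6.60), and Kcnj6 was 5.77-fold higher in AON (3.64 to 9.42). Plcb1 was 3.90-fold (2.83 to 5.48) and Maob, which breaks down monoamines, 4.68-fold (1.69 to 18.0) higher in pPCx. Across the Ebf1/Cntn6 split of pPCx PNs 37 genes could be compared, 7 higher in high nuclei (18.9%, against 12.4% of all genes) and 3 in low nuclei (8.11%, against 6.83%), which is near the share of genes at large. Plcb1 was 2.33-fold (1.82 to 3.00) and Grk5, a kinase of active receptors, 2.80-fold (2.07 to 3.85) higher in high nuclei. Gna11, a G protein alpha subunit gene, was 4.07-fold higher in low nuclei (1.42 to 14.2), on 5 UMIs in high and 16 in low nuclei. Kcnj3 was 3.36-fold higher in low nuclei (2.69 to 4.23), while Kcnj6 was higher in high nuclei on 24 and 2 UMIs. A link of any of these genes to Chrm3 or Htr2a was not tested.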

How the data were processed

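Single nuclei of 2 libraries, AON and pPCx, with 1 library per injection site, were analysed. The authors deposited UMI counts per gene and nucleus, made with Cell Ranger (the matrix header names version 3.1.0), and the genome build used for these libraries is not given in the sources used here. All 49 receptor identifiers were found in GENCODE M21. The receptor genes, classes and lists were chosen with earlier results of these data known. Nuclei with at least 1000 genes were kept, which left 0 nuclei over 5% mitochondrial UMIs. Doublets were not called. Counts were summed per class and divided by the class total. Ratios for the 2-fold limit used 0.5 added UMI and genes with at least 10 UMIs, and printed ratios none. Intervals are at 95%. Remaining nuclei with at least 5 UMIs of the astrocyte or the oligodendrocyte list were called by the larger sum. Named genes were those with at least 10 UMIs over both PN classes or over both AON neuron classes, and other members were counted. Promoters came from RefSeq. Scripts ran under Python 3.11.15 with numpy 2.4.6 and were tested on simulated data. With 9 planned and 2 added alternatives, choices were varied as given in the closing section.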

Additional observations from a re-analysis of the deposited data

Results flagged for a closer look

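Barcodes below the filter of 1000 genes enter no comparison, and those of the AON library nevertheless held 72 receptor UMIs, spread over 15 receptor genes and 26 of the 86 barcodes. This is 761 CPM (595 to 958), against 1522 CPM in the nuclei kept, and it was singled out because it is a signal in data outside the comparisons. The 11 pPCx barcodes below the filter held 2 receptor UMIs (187 CPM). Whether they are shallow nuclei or droplets with free RNA was not tested.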

How the results depend on the processing

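Of 28 gene comparisons, 17 were past 2-fold, and 15 of these kept their direction under every alternative run on them. The exceptions were Htr1d between PN classes and Chrna7 between AON classes. Their log2 ratios were 2.82 and 0.26 when nuclei were thinned to 3000 UMIs. At that depth Htr1d rested on 1 UMI in AON PNs and 0 in pPCx PNs. Chrna7 rested on 3 UMIs in AON PNs and 5 in AON GABAergic nuclei. Thinned to 10000 UMIs, Chrna7 had 4 UMIs in 18 AON PNs and 33 UMIs in 43 AON GABAergic nuclei. The counts of receptors past 2-fold, 4 higher in AON PNs, 5 in pPCx PNs, 1 in AON PNs over GABAergic nuclei and 7 in GABAergic nuclei, became 12, 9, 9 and 16 with no minimum of UMIs. A minimum of 50 UMIs left 0 higher in AON PNs and 3 in pPCx PNs. Adding 5 UMIs in place of 0.5 left 3 in pPCx PNs. A stricter class rule gave 2 in AON PNs over GABAergic nuclei, and thinning to 3000 UMIs gave 1 in AON PNs, 2 in pPCx PNs and 0 in AON PNs over GABAergic nuclei. Without PNs that had more glial-list than excitatory UMIs, 2 were higher in AON PNs. Fewer UMIs or genes enter the stricter of these settings by construction. The Htr2a log2 ratio of AON over pPCx PNs, 0.46, ranged from 0.37 to 1.48, and was 0.98 without the nucleus richest in it in each class. No paired analysis was possible because the groups share no replicate beyond a single library each. Each class rests on few nuclei of 1 animal or pool, and receptors with under 10 UMIs are below what this depth can compare.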

Other observations

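AON GABAergic nuclei were also set apart by whether Chrm3 or Htr1f had the higher CPM, a division made after their values were seen and with no test. Chrm3 was higher in 21 nuclei and Htr1f in 25, and in 5 of the former and 0 of the latter the lesser of the pair exceeded 50% of the greater. The nucleus with 48.09 CPM of each gene was on neither side. The side with more Chrm3 held it at 2001 CPM with Htr1f at 450 CPM, and the side with more Htr1f held that gene at 1469 CPM with Chrm3 at 63.9 CPM. Of the receptors that the division did not use, Chrm2 stood at 646 CPM (578 to 720) and 550 CPM (497 to 607), Adra1a at 255 CPM (213 to 303) and 300 CPM (261 to 343), Chrna7 at 62.8 and 52.8 CPM, Chrm1 at 45.2 and 31.9 CPM, and Htr2c at 31.4 CPM (18.0 to 51.0) and 58.3 CPM (42.0 to 78.8), on the Chrm3 and the Htr1f side. Chrna10 gave 1 UMI on the Chrm3 side and 16 UMIs in 9 nuclei on the Htr1f side. Plcb1 stood at 1692 CPM (1581 to 1809) on the Chrm3 side and 3102 CPM (2974 to 3233) on the Htr1f side, and Kcnq5 at 1993 and 1933 CPM. Igfbpl1, a marker of immature neurons, gave 0 UMIs on the Chrm3 side and 15 UMIs in 6 nuclei on the Htr1f side, while Dcx, of the same list, was found on both sides at 383 and 460 CPM. The median depth was 22402 UMIs on the Chrm3 side and 28132 UMIs on the Htr1f side.

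Among the 4 remaining AON nuclei that met neither glial list, Htr1f stood at 939 CPM and Chrm3 at 421 CPM, on 29 and 13 UMIs. In astrocyte-marker nuclei 43 of the 45 Htr1f UMIs came from 1 nucleus.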
